A study of Mus musculus with 12 samples.

Results

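IAP (intracisternal A particle) elements are endogenous retroviruses of the mouse genome, and 568 repeat annotations that carry an IAP name were followed here through 12 reduced representation bisulfite sequencing (RRBS) libraries. RRBS cuts DNA with MspI, so it samples stretches rich in CpG sites, and bisulfite treatment tells methylated from unmethylated cytosines. A row of the deposited repeat annotation was taken when its name started with IAP but not with IAPLTR, its class was LTR/ERVK and it had a methylation level in every library. These 568 rows stood among 34707 repeat rows and 133311 features of all classes with a level in all 12 libraries. A further 451 rows met the name rule but lacked a level in at least 1 library and were not analysed as members. The choice by name took in no methylation value.

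Each row is 1 subfamily name with an interval in that subfamily's consensus, for example IAPEz-int 1-6800, where the numbers are the first and last consensus base. The files give 1 level for each name and interval and no genome position, so the number of genomic copies behind a row and their chromosomes are unknown. The level is the share of CG calls that were methylated, given here in percent, and differences are in percentage points. Read counts did not accompany the levels, and their depth is unknown. Of the 568 rows, 469 were named as internal sequence (-int) and 99 as long terminal repeats (LTRs), for example IAP1-MM_LTR. The name rule therefore does not select internal sequence alone, and both kinds are given apart below. Members spanned between 35 and 7680 consensus bases with a median of 1389, while the 451 rows missing somewhere had a median of 851.

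The 6 groups held 2 libraries each, all with the strain label C57BL6. ESC were female embryonic stem cells and pESC parthenogenetic embryonic stem cells, which the study derived from activated oocytes without a sperm and kept, like the ESCs, on feeder cells, both lines carrying an Actin-GFP transgene. E9.5_PGC and E12.5_PGC were primordial germ cells (PGCs) of embryonic day 9.5 and 12.5, which the study sorted by surface markers from female embryos. ESC-PGCLC and pESC-PGCLC were PGC-like cells made in culture from either kind of stem cell, through 2 days as epiblast-like cells with bFGF and Activin A and 4 days with BMP4, SCF, EGF and LIF. The labels name neither lines, embryos nor cultures, so the p-values measure only the spread between these libraries. The data hold no expression values, and the cell types were not checked against markers.

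An intact IAP element has an LTR at each end, which carries the promoter, and an internal part that encodes the viral core protein Gag, a protease and the polymerase. Elements of the IAPE kind also carry an envelope gene. IAPs are silenced in mouse cells by DNA methylation and by histone methylation that KRAB zinc finger proteins and their partner TRIM28 direct to them. PGCs lose most of their DNA methylation as they migrate to and settle in the gonad, and IAPs are known as sequences that keep more of it than most of the genome. PGCLCs are used as a culture model of early PGCs.

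The libraries held between 715 and 871 rows of the name rule. Replicates of the ESC group were the least alike. Their levels differed by 6.97 points on average over the 568 members, with replicate 1 higher by 6.13 points, and 125 members were at least 10 points apart. In the other groups the mean difference between replicates was between 2.23 and 3.57 points, and between 14 and 38 members were at least 10 points apart. Comparisons with ESC rest on this wide pair and are given below without either library where that changes them. No replicate pair was a copy, since at most 1 member had the same value in both replicates of a group.

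The mean level over the 568 members was highest in E9.5_PGC and lowest in E12.5_PGC. It was 78.9% and 78.3% in the E9.5_PGC libraries, 78.6% ± 0.431 (SD, n = 2), and 60.9% and 61.2% in the E12.5_PGC libraries, 61.0% ± 0.192 (SD, n = 2). Of the cultured germ cells, ESC-PGCLC held 71.0% and 70.8%, and pESC-PGCLC held 68.1% and 67.5%. Stem cells lay close to these, with 72.1% and 65.9% in ESC and 68.9% and 67.4% in pESC. In descending order the 6 groups were thus E9.5_PGC, ESC-PGCLC, ESC, pESC, pESC-PGCLC and E12.5_PGC. The ESC libraries spanned the values of both pESC and ESC-PGCLC, and pESC and pESC-PGCLC overlapped as well. In this mean those neighbours thus did not differ beyond the spread between libraries. For pESC-PGCLC against pESC, however, the mean joined opposite changes, -1.08 points in internal rows and 2.93 points in LTR rows, each without overlap. The nearest libraries of E9.5_PGC and E12.5_PGC were 17.1 points apart, those of pESC-PGCLC and E12.5_PGC 6.32 points and those of both PGCLC groups 2.73 points. With 2 libraries against 2, an exact permutation test cannot go below p = 0.333, and no p is given for means over members.

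**Figure D1:**
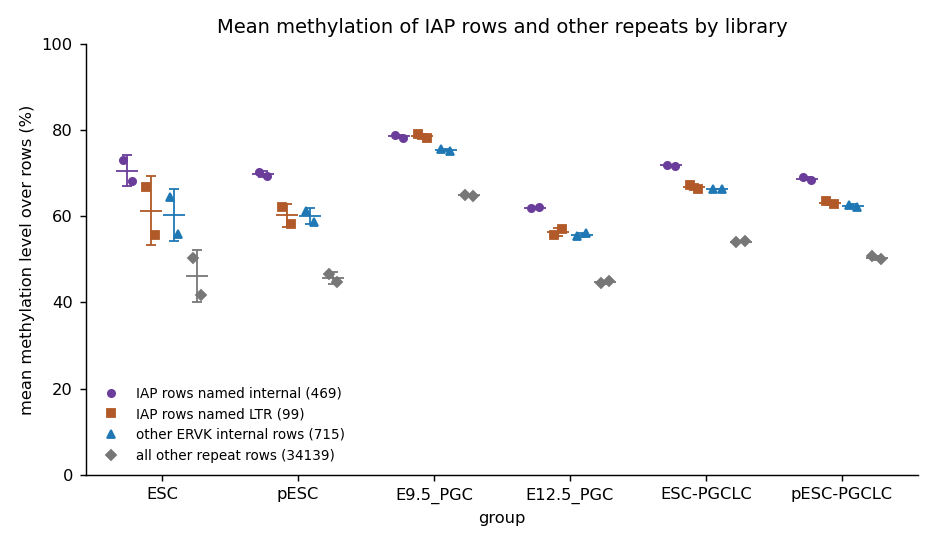
Mean methylation level (%) in each group, shown for each library as a point, with the mean as a dash and the SD of 2 libraries as a bar, for IAP rows named internal, IAP rows named LTR, other internal rows of the ERVK class and all repeat rows that are no member. In E9.5_PGC the IAP rows of both kinds lie together near 78.6%, and in every other group the internal rows lie higher.

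Members were more methylated than the rest of the repeats in every library. Internal rows of other ERVK families, the class of retroviruses to which IAPs belong, had a mean of 75.4% in E9.5_PGC and 55.7% in E12.5_PGC over 715 rows, and members exceeded them by 3.11 to 9.94 points in the 12 libraries. The 34139 repeat rows that are no member had means of 64.9% and 44.7% in these groups, and members exceeded them by 13.5 to 24.1 points. The distance to the 146 rows whose name starts with IAPLTR was small, between 0.328 and 3.60 points, and 83 of those 146 rows are themselves named as internal sequence. At E12.5 members stood at 77.7% of their E9.5 level. The corresponding figure was 78.3% for IAPLTR rows, 73.9% for other ERVK internal rows and 68.9% for all repeat rows that are no member. In points, members fell by 17.5, IAPLTR rows fell by 16.8, other ERVK internal rows fell by 19.7 and the remaining repeats fell by 20.2.

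Between E9.5 and E12.5, methylation fell in most members, and no rise was called. The group mean was higher at E12.5 in 11 members. Of 568 members, 489 were lower in E12.5_PGC and 0 were higher at an adjusted p under 0.05 with a difference of at least 10 points, by limma across 137202 features with Benjamini-Hochberg adjustment, which is what a call means below. This is 86.1% of members, beside 49.6% of all features tested and 84.9% of the 37202 repeat rows tested, so the share among IAPs was close to that among repeats as a class. The median difference was -17.6 points over members, -11.5 points over all features and -19.5 points over repeat rows. With features under a mean level of 5% left out, the median over all features was -19.1 points. In 546 members both E12.5_PGC libraries lay below both E9.5_PGC libraries, and in 1 they lay above. The share of members that lay below, 96.1%, stands beside 68.9% of all features and 94.4% of repeat rows. In the remaining members the libraries overlapped. With levels centred on the median of each library, which moved the median difference of all features from -11.5 to 4.48 points, 15 members were called higher and 50 lower, 11.4% of members beside 46.3% of all features.

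**Figure D2:**
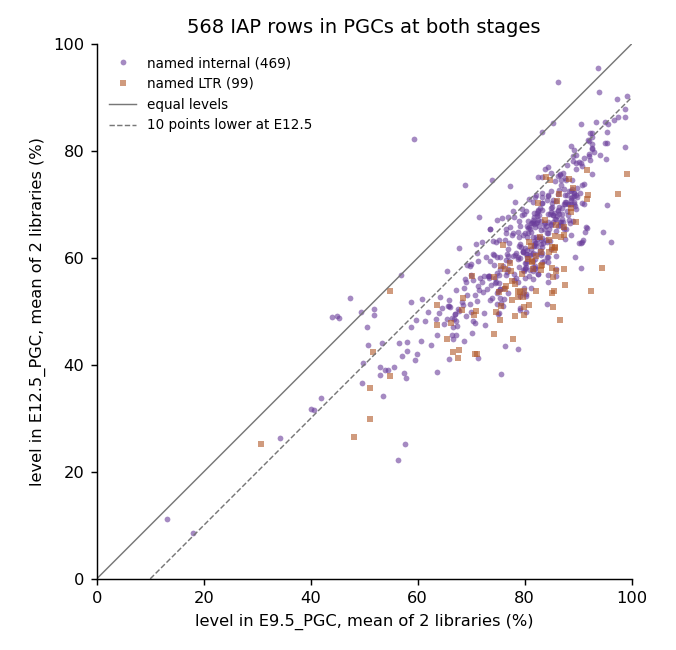
Level of each of the 568 members in E9.5_PGC (horizontal axis, %) and E12.5_PGC (vertical axis, %), each the mean of 2 libraries, with internal and LTR names in different colours, a line of equal levels and a dashed line 10 points below it. Most points lie below the dashed line, the LTR points lower than the internal points at the same E9.5 level, and Pearson's r across the 568 members is 0.82.

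Rows that were high at E9.5 tended to be high at E12.5. Pearson's r across members was 0.82, a description over rows that share libraries and, within a subfamily, sequence. At E9.5, 315 members were at 80% or more, and 30 were at E12.5. Against this, 5 members were under 40% at E9.5 and 24 were at E12.5. The SD over members was 11.6 points in E9.5_PGC and 11.9 points in E12.5_PGC, so the spread among rows was about as wide after the fall as before it.

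The deepest called falls were in LTR rows and in the start of an internal consensus. IAPEY_LTR 1-110 had 92.7% and 92.1% at E9.5 against 51.1% and 56.6% at E12.5, a fall by 38.5 points (adjusted p = 7.96e-05). IAPEY_LTR 212-385, in the other end of the same LTR, went from 87.3% and 85.8% to 45.5% and 51.2% (adjusted p = 0.000128). IAP-d-int 2-134 had 75.7% in both E9.5 libraries against 40.4% and 36.0% at E12.5 (adjusted p = 7.47e-05). In these 3 rows the stages were more than 30 points apart, with replicates within 6 points of each other.

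A few rows stood at the extremes at E12.5. IAPEY3-int 747-837 was the highest, with 94.9% and 96.1% at E12.5 and 97.6% and 90% at E9.5. IAPEz-int 3-57 had 85.7% and 100% at E12.5 and 95.2% and 77.4% at E9.5. IAPEz-int 13-57 had 91.3% and 90.7% at E12.5 and 95.1% and 92.8% at E9.5. None of these 3 rows, all under 100 bases long, was called, and in the first pair the stages overlapped. At the other end, IAPEY5_I-int 10-701 had 11.8% and 5.26% at E12.5 and 20.7% and 15.2% at E9.5. IAPEY4_I-int 5-7673, a nearly complete internal sequence, had 9.26% and 13.3% at E12.5 and 12.3% and 13.9% at E9.5. IAP1-MM_I-int 336-476 had 22.9% and 21.6% at E12.5 after 58.2% and 54.5% at E9.5. IAPEY5_I-int 10-701 and IAPEY4_I-int 5-7673 were thus low at both stages, whereas IAP1-MM_I-int 336-476 was not.

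The LTR and internal names had the same mean at E9.5 and parted elsewhere. In E9.5_PGC the internal rows had 78.8% and 78.3% and the LTR rows 79.0% and 78.1%, a mean gap of -0.0236 points. By E12.5 the internal rows were at 62.0% and 62.1% and the LTR rows at 55.7% and 57.0%, a gap of 5.70 points. The gap was 5.02 points in ESC-PGCLC, 5.65 in pESC-PGCLC, 9.35 in ESC and 9.66 in pESC. Internal rows were thus higher in all 10 libraries outside E9.5_PGC and in 1 of the 2 E9.5_PGC libraries. Both E12.5_PGC gaps exceeded both E9.5_PGC gaps by at least 4.91 points. The ESC libraries carried much of their disagreement in the LTR rows, with 66.9% and 55.6%, against 73.1% and 68.1% in internal rows. In calls between E9.5 and E12.5, 397 of 469 internal rows (84.6%) and 92 of 99 LTR rows (92.9%) were lower. This split by name was made after the names in the files had been seen, and LTR rows are also short, with subfamily median spans between 286 and 332 bases. The split also mixes kind of name with subfamily. Of the 469 internal rows 262 were IAPEz-int, the highest internal subfamily with at least 5 rows in every library. No LTR row carries that name, and how far this mix made the gap was not tested.

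Named pairs of the same element kind showed the pattern to different degrees. IAPEY5_LTR had 78.7% and 78.4% at E9.5, above IAPEY5_I-int with 67.2% and 66.6%, but 52.0% and 54.2% at E12.5, near IAPEY5_I-int with 55.4% in both. IAPEY3_LTR had 82.5% and 81.9% at E9.5 beside 79.7% and 78.1% in IAPEY3-int, and 61.1% and 60.5% at E12.5 beside 62.4% and 62.2%. In both pairs the LTR was higher than the internal part at E9.5 and lower at E12.5. IAP1-MM_LTR was lower than IAP1-MM_I-int at both stages, with 71.6% and 69.4% against 80.2% and 79.5% at E9.5, and at E12.5 46.9% and 48.6% against 60.6% and 61.1%. IAPEY_LTR, set beside IAPEy-int by name, was higher at E9.5 and overlapped it at E12.5, with 57.6% and 59.6% against 58.6% and 59.2%. This LTR was higher in each PGCLC library, with means of 69.8% against 68.0% in ESC-PGCLC and 66.1% against 65.5% in pESC-PGCLC. In each stem cell library it was lower. IAPEY3_LTR had 72.7% and 72.2% in ESC-PGCLC, beside 72.2% in both libraries for IAPEY3-int.

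Most subfamilies lay below the largest of them, IAPEz-int with 262 rows. IAPEz-int had 81.8% and 81.4% in E9.5_PGC and 65.0% and 65.2% in E12.5_PGC. Of the 12 other subfamilies with at least 5 rows, 9 had a lower mean than IAPEz-int in every library. IAPEY3_LTR, IAPEY_LTR and IAPEY3C_LTR were higher in both E9.5_PGC libraries and lower in the 10 others. Relative to IAPEz-int, the difference was between -3.54 and -2.09 points in the 12 libraries for IAPEY3-int with 67 rows. It was between -12.6 and -8.68 points for IAP-d-int with 55 rows and between -14.8 and -9.06 points for IAPEY5_I-int with 23 rows.

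**Figure D3:**
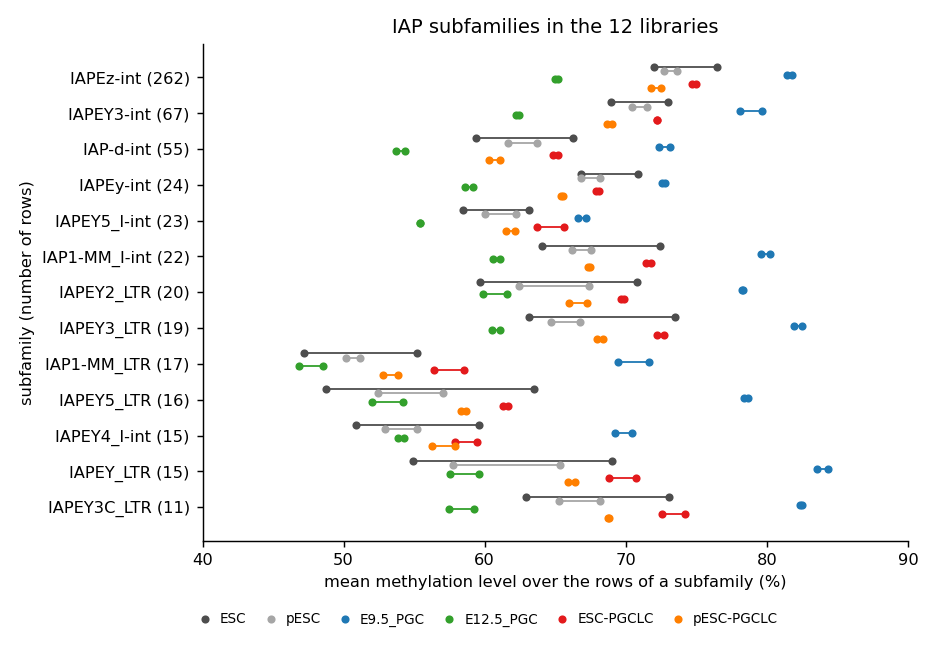
Mean methylation level (%) over the rows of each of the 13 subfamilies with at least 5 members in each library, where 2 points joined by a line are the 2 libraries of a group. E9.5_PGC lies to the right of E12.5_PGC in all 13 subfamilies, and the ESC pair is the widest in each of them.

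Every one of the 13 subfamilies fell from E9.5 to E12.5 with no overlap between libraries. The smallest fall was in IAPEY5_I-int, from 66.9% ± 0.391 to 55.4% ± 0.0111 (SD, n = 2), with 12 of 23 rows called lower. IAPEy-int with 24 rows went from 72.7% to 58.9%, and 19 rows were called lower. IAPEz-int fell by 16.5 points, with 229 of 262 rows called lower. IAPEY3-int fell by 16.6 points, with 58 of 67. The largest falls were by 25.4 points in IAPEY5_LTR and by 25.3 points in IAPEY_LTR, where 16 of 16 and 14 of 15 rows were called lower. IAP1-MM_LTR with 17 rows was the lowest subfamily at E12.5, at 47.7%, after 70.5% at E9.5. IAP-d-int went from 72.7% to 54.0% with 50 of 55 rows called, IAP1-MM_I-int with 22 rows from 79.9% to 60.9% with 19, and IAPEY4_I-int with 15 rows from 69.8% to 54.1% with 9. IAPEY2_LTR with 20 rows went from 78.3% to 60.7%, IAPEY3_LTR with 19 rows from 82.2% to 60.8% and IAPEY3C_LTR with 11 rows from 82.4% to 58.4%. The single rows of IAPA_MM-int and IAPEY4_LTR had 88.6% and 30.6% at E9.5 against 64.3% and 25.2% at E12.5.

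Longest rows of the internal subfamilies, which cover most of an element, covered a wide range of levels. IAPEz-int 1-6800 had 71.8% and 72.6% at E9.5 against 53.4% and 53.7% at E12.5 (adjusted p = 0.000122). IAPEY3-int 1-7680 had 80.2% and 78.9% at E9.5 against 69.0% and 69.4% at E12.5 (adjusted p = 0.00693). IAPEy-int 1-7513 had 77.0% and 75.5% at E9.5 against 63.5% and 63.1% at E12.5 (adjusted p = 0.00224). These 3 rows fell by 10.4 to 18.6 points. IAPEY4_I-int 1-7673 stood lower, at 57.9% and 58.2% and then 41.7% and 43.4% (adjusted p = 0.000413). IAP-d-int 1-6953 had 54.2% and 53.6% and then 37.5% and 40.4% (adjusted p = 0.0172). IAPEY5_I-int 1-3574 had 70.7% and 69.0% and then 52.4% and 50.4% (adjusted p = 0.000277). Thus a nearly complete element could be above 78% or under 60% at E9.5. Such rows also differed within IAPEY4_I-int, with E9.5_PGC means of 58.0% in 1-7673, 76.6% in 2-7291, 60.9% in 62-7673 and 13.1% in 5-7673. What set these levels was not tested. The longest IAP1-MM_I-int row, 831-3853, had 52.9% and 62.0% at E9.5 against 39.6% and 37.3% at E12.5 (adjusted p = 0.024).

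Longest rows of the LTR subfamilies all fell from E9.5 to E12.5. IAP1-MM_LTR 1-292 went from 74.6% and 75.7% to 53.8% and 53.3%. IAPEY_LTR 1-385 went from 83.0% and 83.7% to 57.8% and 59.7%. IAPEY2_LTR 1-357 went from 77.8% and 77.6% to 53.7% and 50.5%. These rows span nearly the whole LTR consensus seen in the files, and each fell by over 21 points. IAPEY3_LTR 1-465, IAPEY3C_LTR 1-384 and IAPEY5_LTR 11-373 fell by 21.6, 25.6 and 23.7 points. Adjusted p lay between 7.47e-05 and 0.000437 in the 6 rows.

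Within IAPEz-int, rows centred toward the 5′ end of the consensus were more methylated than rows centred toward the 3′ end. Each row has 1 level for its whole interval, so this compares different rows and not positions within an element. Rows were placed by their midpoint in the consensus, which spans positions 1 to 7329 among members. The 156 rows with a midpoint up to position 2444, hereafter 5′ rows, had 82.7% ± 0.452 at E9.5 and 66.5% ± 0.350 at E12.5 (SD, n = 2). The 37 rows with a midpoint beyond position 4886, hereafter 3′ rows, had 78.2% ± 0.475 and 59.0% ± 0.0188 (SD, n = 2). The 5′ rows exceeded the 3′ rows by 3.85 to 7.73 points in the 12 libraries. The difference was 4.50 points in E9.5_PGC, 7.49 in E12.5_PGC and between 6.22 and 6.64 in the 4 other groups. Both had like spans, with medians of 1594 and 1797 bases. Among rows under 1000 bases, a choice made after the data were seen, the mean difference over the 12 libraries was 11.02 points, from 60 5′ rows and 8 3′ rows.

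**Figure D4:**
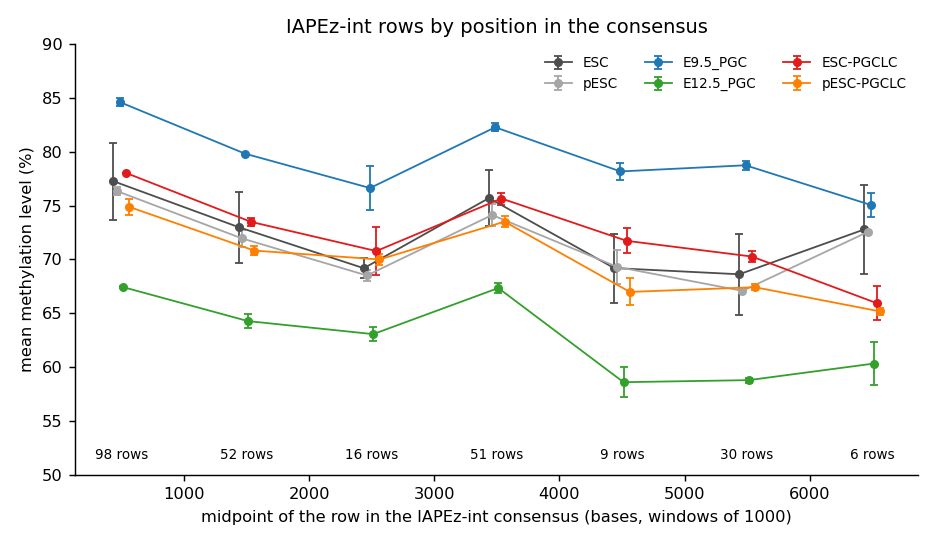
Mean methylation level (%) of IAPEz-int rows by the midpoint of the row in the consensus, in windows of 1000 bases, for the 6 groups, where bars are the SD of 2 libraries and the number of rows stands under each window. E9.5_PGC is highest and E12.5_PGC lowest in every window, and the window from 3000 to 4000, which holds the nearly complete elements, is higher than its neighbours.

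Levels by the midpoint of the row did not follow an even course. At E9.5 the 98 rows centred in the first 1000 bases had 84.6%, and the 16 rows centred between 2000 and 3000 had 76.6%. Rows centred between 3000 and 4000, which are long with a median span of 6465 bases, had 82.3%. Between 5000 and 6000, 30 rows had 78.7%. At E12.5 these 4 windows stood at 67.4%, 63.1%, 67.3% and 58.8%, so the fall was 17.2, 13.6, 14.9 and 19.9 points. The 39 rows that span at least 6000 bases had 83.0% at E9.5 and 68.7% at E12.5, and the 223 shorter rows 81.4% and 64.4%. Split at the median span, however, the difference of longer minus shorter rows was between -3.31 and -1.30 points in the 12 libraries, so level did not follow length in 1 direction. The 165 rows that start within the first 20 bases had 83.1% at E9.5 and 67.1% at E12.5, against 79.0% and 61.6% in the 97 rows that start later.

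Other subfamilies offered fewer rows for such a profile. In IAPEY3-int the 28 rows centred in the first 1000 bases had 79.7% at E9.5 and 62.7% at E12.5, and the 12 rows centred between 3000 and 4000 had 79.6% and 64.7%. In IAP-d-int the 23 rows of the first window had 73.4% and 53.8%, and the 6 rows between 5000 and 6000 had 67.5% and 55.7%. IAPEy-int, with 6 rows in each, had 82.7% and 64.9% in the first window and 69.6% and 56.1% between 6000 and 7000. At E9.5 the first window was thus above the late one in IAP-d-int and IAPEy-int, as it was in IAPEz-int. In IAP-d-int this order did not hold at E12.5, nor in ESC (60.2% against 62.3% in the late window) or pESC-PGCLC (58.9% against 59.4%). It held there in pESC and ESC-PGCLC.

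Germ cells made in culture lay between both PGC stages. Comparisons of either PGCLC with a PGC stage share the PGC libraries, and the 2 comparisons at each stage are set side by side without a test between them. Against E9.5_PGC, 126 members were lower and 3 higher in ESC-PGCLC, and 279 were lower and 2 higher in pESC-PGCLC. The shares called, 22.7% and 49.5%, stand beside 29.8% and 40.3% of all features tested, and beside 41.4% and 62.7% of repeat rows. Both shares lay below those of repeat rows, a difference that was not tested. The median difference over members was -6.89 points in ESC-PGCLC and -10.4 points in pESC-PGCLC, and over all features -4.99 and -7.48 points. Over repeat rows it was -9.59 and -13.2 points. After centring, 22 members were higher and 18 lower in ESC-PGCLC, and 17 higher and 20 lower in pESC-PGCLC. These are 7.04% and 6.51% of members, beside 21.6% and 35.7% of all features.

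LTR rows were called at higher shares than internal rows in those comparisons. In ESC-PGCLC 53 of 99 LTR rows (53.5%) and 76 of 469 internal rows (16.2%) differed from E9.5_PGC. In pESC-PGCLC the shares were 81.8% and 42.6%. Among ERVK rows without an IAP name, internal rows were called at 34.5% in ESC-PGCLC and 59.6% in pESC-PGCLC. The remaining such rows were called at 54% and 72%, so a lower share in internal rows was not particular to IAPs. IAPEY_LTR 212-385 had 87.3% and 85.8% in E9.5_PGC, 53.5% and 47.2% in ESC-PGCLC (adjusted p = 0.000857) and 52.4% and 44.3% in pESC-PGCLC (adjusted p = 0.000319). IAPEY_LTR 1-110 had 92.7% and 92.1% in E9.5_PGC and 56.8% and 52.7% in pESC-PGCLC (adjusted p = 0.000262). Among internal rows, IAP-d-int 55-602 had 88.5% and 91.7% in E9.5_PGC, 45.0% and 45.5% in ESC-PGCLC and 48.9% and 45.1% in pESC-PGCLC, with adjusted p of 0.000801 and 0.000317. In these rows the PGCLC libraries were near or below the E12.5_PGC libraries, which had 68.3% and 57.3% in IAP-d-int 55-602.

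Few rows were higher in PGCLCs than in E9.5_PGC. IAPEY5_I-int 10-701 had 20.7% and 15.2% in E9.5_PGC, 33.8% and 45.8% in ESC-PGCLC (adjusted p = 0.0317) and 39.1% and 46.4% in pESC-PGCLC (adjusted p = 0.0174). IAPEz-int 288-797 had 40% and 50% in E9.5_PGC, 60.2% and 58.1% in ESC-PGCLC (adjusted p = 0.0426) and 62.4% and 55.9% in pESC-PGCLC (adjusted p = 0.0361). Both rows were also higher in ESC than in E9.5_PGC, with 54.2% and 53.6% and with 62.4% and 65.0%. These ESC levels lay below the ESC means of their subfamilies, 60.8% in IAPEY5_I-int and 74.2% in IAPEz-int. IAPEY5_I-int 6-3560 had 65.9% and 71.9% in E9.5_PGC and 81.8% and 83.3% in ESC-PGCLC (adjusted p = 0.00589). The calls of IAPEY5_I-int 10-701 were lost in 5 of 8 fits that left out 1 library for ESC-PGCLC and in 2 of 8 for pESC-PGCLC, with adjusted p up to 0.145 (without ESC-PGCLC replicate 2) and 0.0917 (without pESC-PGCLC replicate 2). Those of IAPEz-int 288-797 were lost in 5 and 4 of 8, with adjusted p up to 0.181 (without E9.5_PGC replicate 1) and 0.168 (without pESC-PGCLC replicate 1).

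Against E12.5_PGC the direction turned. ESC-PGCLC was higher in 271 members and lower in 4, which is 48.4% of members beside 22.8% of all features and 39.7% of repeat rows. pESC-PGCLC was higher in 100 members and lower in 0, which is 17.6% beside 7.1% of all features and 12.5% of repeat rows. The median difference over members was 10.2 and 6.98 points, and over all features 2.97 and 1.30 points. Over repeat rows it was 9.62 and 6.02 points. Internal and LTR rows were called at like shares here, 48.4% and 48.5% in ESC-PGCLC and 18.1% and 15.2% in pESC-PGCLC. After centring, 56 members were higher and 6 lower in ESC-PGCLC and 2 higher and 0 lower in pESC-PGCLC. These are 10.9% and 0.352% of members, beside 5.97% and 0.828% of all features. The count of 100 also rested on single libraries, as it was 0 without pESC-PGCLC replicate 1, 1 without replicate 2, 3 without E12.5_PGC replicate 1, 14 without replicate 2 and 55 without either E9.5_PGC library, and 4 in a fit of all 12 libraries. In these fits the remaining library of a group was taken to vary like the other groups.

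Large rises over E12.5_PGC in both cultures were seen in IAPEY5_I-int 10-701 and IAPEz-int 1-662. IAPEY5_I-int 10-701 rose from 11.8% and 5.26% by 31.2 points in ESC-PGCLC (adjusted p = 0.00637) and by 34.2 points in pESC-PGCLC (adjusted p = 0.0195). IAPEz-int 1-662, at the 5′ end of the internal consensus, had 27.7% and 22.9% in E12.5_PGC, 59.6% and 59.7% in ESC-PGCLC (adjusted p = 0.00234) and 62.6% and 56.4% in pESC-PGCLC (adjusted p = 0.00825). This row was at 56.0% and 59.3% in E9.5_PGC, close to its PGCLC levels. IAP1-MM_I-int 1-215 had 66.1% and 66.7% in E12.5_PGC and 88.8% and 100% in ESC-PGCLC (adjusted p = 0.0405). IAPEY4_I-int 909-7680 had 47.8% and 50.5% in E12.5_PGC and 73.9% and 65.5% in pESC-PGCLC (adjusted p = 0.0317). Leaving out 1 library ended the call in 6 of 8 fits for IAP1-MM_I-int 1-215 and for IAPEY4_I-int 909-7680, with adjusted p up to 0.136 (without E12.5_PGC replicate 1) and 0.126 (without pESC-PGCLC replicate 1). For pESC-PGCLC it did so in 4 of 8 fits for IAPEY5_I-int 10-701 and in 1 for IAPEz-int 1-662, with adjusted p up to 0.092 and 0.0614, both without pESC-PGCLC replicate 1.

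Rows that were lower in ESC-PGCLC than in E12.5_PGC stood apart from the rest of their subfamilies. IAPEY3-int 1-7307 had 42.0% and 39.3% in ESC-PGCLC against 66.6% and 65.1% in E12.5_PGC (adjusted p = 0.00187) and 77.0% and 77.5% in E9.5_PGC (adjusted p = 0.000725). IAPEz-int 5525-7329 had 46.2% and 45.3% in ESC-PGCLC against 78.7% and 70.5% in E12.5_PGC (adjusted p = 0.00491). IAPEz-int 1-2142 had 15.2% and 31.2% in ESC-PGCLC against 50.6% and 47.9% in E12.5_PGC (adjusted p = 0.0216). In pESC-PGCLC the 3 rows had 62.1% and 63.4%, 60.7% and 63.2%, and 49.7% and 41.7%. The call of IAPEz-int 1-2142 was lost without either E12.5_PGC library, with adjusted p up to 0.094 (without replicate 1).

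**Figure D5:**
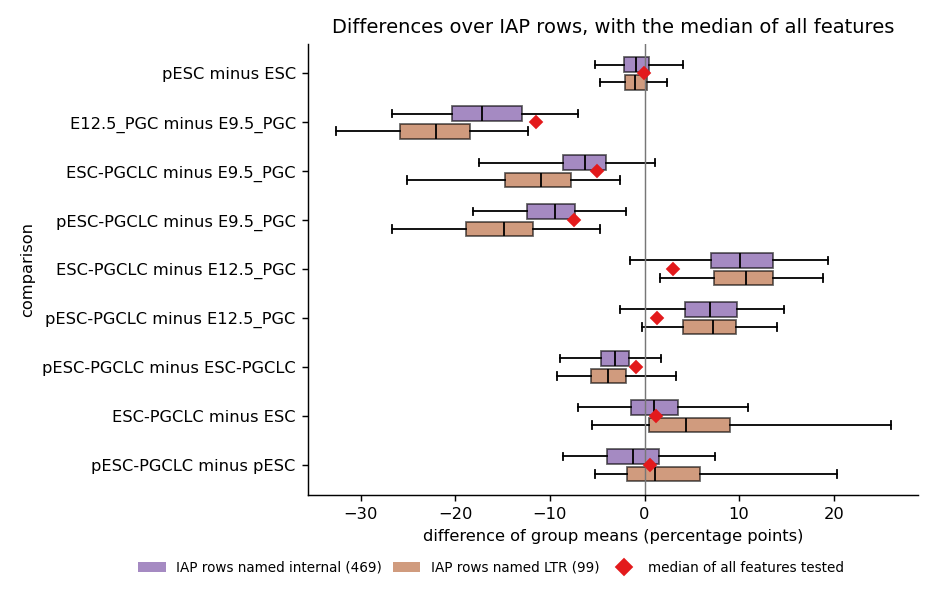
Differences of group means (percentage points) over the IAP rows named internal and named LTR for 9 comparisons, as boxes from the lower to the upper quartile with the median as a line and whiskers from the 5th to the 95th percentile, and the median of all features tested as a diamond. Members fall further than the median feature from E9.5 to E12.5 and lie higher than it in both PGCLC groups against E12.5_PGC. The median of repeat rows, not drawn, was -19.5 points from E9.5 to E12.5, beside -17.6 points over all members. For ESC-PGCLC and pESC-PGCLC against E12.5_PGC it was 9.62 and 6.02 points, beside 10.2 and 6.98 points over all members.

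The origin of the cells made little difference that could be called. Between pESC-PGCLC and ESC-PGCLC, 1 member was called higher and 0 lower, beside 0.0948% of all features. The called row was IAPEY3-int 1-7307, described above, with a difference of 22.1 points (adjusted p = 0.0351). This call was lost in 7 of 8 fits that left out 1 library, all but the one without ESC-PGCLC replicate 1, which called 3 members, with adjusted p up to 0.232 (without pESC-PGCLC replicate 2). Yet pESC-PGCLC was the lower in the mean of all 13 subfamilies with no overlap between libraries, by 1.63 points in IAPEY4_I-int to 4.59 points in IAPEY3C_LTR. In 357 members both pESC-PGCLC libraries lay below both ESC-PGCLC libraries, and in 20 they lay above. The share of members that lay below, 62.9%, stands beside 42.2% of all features and 54.7% of repeat rows. The median difference was -3.27 points over members, -0.953 points over all features and -3.59 points over repeat rows. With an offset of 0.1 on the log2 odds scale, 1 member was higher and 5 lower, and on untransformed levels 1 was higher and 9 lower. These are 1.06% and 1.76% of members, beside 0.974% and 1.29% of all features.

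Between pESC and ESC no member was called, as no feature of 148012 was (0% of all features). At an unadjusted p under 0.05, 3 members and 2054 features passed in limma. In simulations of 20000 features, 200 were moved by 2 or by 4 log2 odds units. The pESC against ESC fit recovered 0 and 131 of them. For E12.5_PGC against E9.5_PGC these counts were 175 and 196, and for ESC-PGCLC against ESC 130 and 188. The empty list therefore does not show that pESC and ESC were alike. No alternative fit called a member except the one without pESC replicate 2, which called 1. The median difference over members was -0.903 points, and no subfamily mean was separated between these groups. By size alone, IAPEY3-int 3-674 was highest in pESC relative to ESC, with 61.0% and 47.1% against 34.1% and 46.2%, and IAP-d-int 738-1150 had 81.4% and 85.4% against 71.3% and 70.0%. IAPEY5_I-int 6-3560 had 76.7% and 73.4% in pESC against 71.2% and 59.3%. In the other direction IAPEy-int 6896-7498 had 47.8% and 48.2% in pESC against 64.8% and 54.5%. IAPEY4_I-int 2-981 had 41.5% and 32.5% against 61.5% and 34.3%, and IAPEY3_LTR 1-322 had 28.6% and 24.8% against 50.6% and 22.5%. All 6 differences had an adjusted p of 1. IAPEY4_I-int 2-981 and IAPEY3_LTR 1-322 overlapped between the groups, while the 4 others did not. Without ESC replicate 1, the differences of these 2 rows were 2.71 and 4.22 points in the other direction.

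Few members were called upon induction from stem cells to PGCLCs. Of the 13 subfamily means, however, 6 rose and 4 fell without overlap from pESC, and 2 rose and 0 fell from ESC. The falls were in IAPEz-int, IAPEY3-int, IAP-d-int and IAPEy-int. From ESC to ESC-PGCLC, 17 members rose and 7 fell, which is 4.23% of members beside 14.6% of all features and 15% of repeat rows. Of the 99 LTR rows 7 rose and 0 fell, and of the 469 internal rows 10 rose and 7 fell. From pESC to pESC-PGCLC, 4 members rose and 4 fell, which is 1.41% beside 9.66% of all features and 9.79% of repeat rows. The median difference over members was 1.42 and -0.829 points, and over all features 1.26 and 0.566 points. Over repeat rows it was 4.49 and 1.62 points. The mean of repeat rows that are no member rose by 8.04 and 4.77 points without overlap. Beside this the mean of members changed by 1.94 and -0.38 points, with overlap in both. Without ESC replicate 1, 63 members rose and 5 fell from ESC to ESC-PGCLC, and without ESC replicate 2, 14 rose and 18 fell. After centring, which moved the median difference of all features to -11.5 and -9.47 points, 2 members rose and 352 fell in the first comparison and 2 rose and 318 fell in the second. These are 62.3% and 56.3% of members, beside 52.1% and 33.3% of all features. The count from ESC was also 15 and 10 without ESC-PGCLC replicate 1 and 2, and 14 without either pESC-PGCLC library. The count from pESC was 20 without either ESC library, 4 and 5 without pESC replicate 1 and 2, and 3 and 2 without pESC-PGCLC replicate 1 and 2.

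Several rows that rose upon induction were low in stem cells. IAP1-MM_LTR 5-292, nearly the whole LTR, had 16.0% and 11.5% in ESC and 62.1% and 57.9% in ESC-PGCLC (adjusted p = 0.000508). In pESC it had 8.77% and 13.8% and in pESC-PGCLC 47.8% and 53.2% (adjusted p = 0.00097), and E9.5_PGC had 83.9% and 86.7%. IAPEY_LTR 204-385 had 3.28% and 2.51% in ESC, 1.84% and 3.37% in pESC and 25.6% and 27.4% in pESC-PGCLC (adjusted p = 0.000325), with 48.7% and 47.7% in E9.5_PGC. Both rows were thus lower in each of the 4 stem cell libraries than in any of the 8 germ cell libraries. IAPEY3_LTR 1-322 rose from 50.6% and 22.5% in ESC to 68.7% and 67.3% in ESC-PGCLC (adjusted p = 0.0403). IAPEY4_I-int 62-7673 rose from 31.7% and 21.9% to 50% and 63.0% (adjusted p = 0.0196). IAPEY4_I-int 12-113 rose from 28.4% and 28.9% in pESC to 47.7% and 43.8% in pESC-PGCLC (adjusted p = 0.0215). The last 3 calls were lost in 6, 2 and 4 of 8 fits without 1 library, with adjusted p up to 0.151 (without ESC-PGCLC replicate 1), 0.123 (without ESC-PGCLC replicate 2) and 0.182 (without pESC-PGCLC replicate 1).

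The rows called lower upon induction, 7 from ESC and 4 from pESC, were internal sequences, as were 469 of the 568 members. In some alternative fits 1 LTR row was also called lower, for example from ESC with an offset of 0.1 and from pESC with a replicate block. IAP1-MM_I-int 831-3853 had 63.0% and 56.9% in ESC and 18.6% and 30.2% in ESC-PGCLC (adjusted p = 0.00288). IAPEz-int 5525-7329 fell from 77.3% and 71.3% by 28.6 points (adjusted p = 0.00187), and IAPEY3-int 1-7307 fell from 71.2% and 64.1% by 27.0 points (adjusted p = 0.00338). From pESC to pESC-PGCLC, IAPEy-int 3-2012 fell from 74.9% and 79.6% to 58.0% and 61.4% (adjusted p = 0.0235). IAPEz-int 5549-6481 fell from 78.8% and 80.4% to 63.9% and 63.3% (adjusted p = 0.033). IAPEY3-int 497-2497 fell from 73.7% and 73.5% to 60.5% and 58.4% (adjusted p = 0.0196). These 3 rows had lower levels again in E12.5_PGC, between 38.9% and 54.6% in its libraries. Their calls were lost in 4, 4 and 6 of 8 fits without 1 library, with adjusted p up to 0.173 (without pESC-PGCLC replicate 1), 0.183 and 0.176 (both without pESC-PGCLC replicate 2). The fourth called fall from pESC was in IAP-d-int 738-1150, from 81.4% and 85.4% to 67.9% and 70.5% (adjusted p = 0.0176), near its E12.5_PGC levels of 68.8% and 68.1%. This call was lost in 3 of 8 such fits, with adjusted p up to 0.148 (without pESC-PGCLC replicate 1).

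The change upon induction was also compared between the 2 origins with an interaction term. No member passed, beside 0.0365% of all features, while 15 members and 4053 features had an unadjusted p under 0.05. In 16 members (2.82%) both libraries moved one way from ESC and both the other way from pESC, beside 1.75% of all features and 2.08% of repeat rows. The largest negative values were in IAP-d-int 48-169 (-24.3 points), IAP-d-int 738-1150 (-23.8 points) and IAPEY3-int 1-337 (-21.5 points), where the change from pESC lay below that from ESC. The largest positive values were in IAPEz-int 10-4375 (28.7 points), IAPEY4_I-int 2-7291 (25.4 points) and IAPEY3-int 1-7307 (22.7 points). Adjusted p was 0.474 in IAP-d-int 738-1150 and 1 in the 5 others. In IAPEz-int 10-4375 the ESC-PGCLC libraries had 81.5% and 23.3%, and those of E9.5_PGC 87.8% and 30.8%, and without ESC-PGCLC replicate 2 its difference was -0.35 points. IAP-d-int 48-169 likewise had replicates far apart in ESC-PGCLC, at 50% and 80%.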

How the data were processed

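RRBS levels of 12 mouse libraries were analysed. The authors deposited, for each library, a fraction between 0 and 1 per annotated feature, the methylated share of its CG calls. Per the labels' processing notes they used Bismark 0.16.3 and Bowtie2 with mm10. Per the study's methods they kept unique best alignments, regarded identical reads as duplicates and corrected for non-conversion. Their coverage minimum is not given in the sources used here. Unique alignment can leave out young repeat copies that are alike, and rows pool what remains.

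Groups and replicate numbers came from sample titles. Levels were compared by limma 3.58.1 in R 4.3.3 on log2((level + 0.01) / (1 - level + 0.01)), using features measured throughout the libraries of each fit. Fits held the 4 stem cell libraries, the 8 PGC and PGCLC libraries, or the 8 stem cell and PGCLC libraries. A call needed a Benjamini-Hochberg adjusted p under 0.05 and 10 points. Rows named in the text were the 3 largest called differences each way in each comparison (any difference where none was called), the longest row of each subfamily with at least 5 rows, and the 3 highest and lowest at E12.5. The members and lists were chosen with earlier results of these data known, so means over members carry no p. The limma fit was first tested on simulated data, with the recovered counts given above beside pESC against ESC. Other values used Python 3.11.15, numpy 2.4.6, pandas 2.3.3 and scipy 1.17.1, and plots matplotlib 3.10.9. Alternatives were a replicate block, other offsets and scales, centring, a filter at 5%, a fit of all libraries, leaving out LTR names and leaving out each library.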

Additional observations from a re-analysis of the deposited data

Results flagged for a closer look

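In 16 of 568 members (2.82%, beside 1.75% of all features), both libraries moved one way upon induction from ESC and both the other way upon induction from pESC. The 3 of them that are among the rows named above are given here. In IAP-d-int 738-1150 levels went from 71.3% and 70.0% to 78.8% and 81.7% from ESC, and from 81.4% and 85.4% to 67.9% and 70.5% from pESC, a difference of -23.77 points between the changes (limma interaction, adjusted p = 0.474). Its fall from pESC was called (adjusted p = 0.0176), while the rise from ESC was not (adjusted p = 0.0689). In IAPEY4_I-int 2-7291 the difference was 25.38 points, with ESC-PGCLC at 58.9% and 31.4% (adjusted p = 1). In IAPEY3-int 1-337 it was -21.5 points, with ESC-PGCLC at 63.6% and 85.0% (adjusted p = 1). In the last 2 rows neither change was called, and the interaction passed in none of the 3.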

How the results depend on the processing

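Averaged over libraries, all comparisons of members with other repeats, of subfamilies with IAPEz-int and of position and span within IAPEz-int kept their direction under every alternative run. Apart from IAPEY3_LTR, IAPEY_LTR and IAPEY3C_LTR, these differences had the same sign in all 12 libraries. Leaving out 1 library therefore could not turn them, and that run says nothing more about them. Centring each library on its median gave 65 member calls between E12.5_PGC and E9.5_PGC, 40 and 37 for ESC-PGCLC and pESC-PGCLC against E9.5_PGC, 62 and 2 against E12.5_PGC, and 354 and 320 for induction from ESC and pESC. The adjusted p alone, without the limit of 10 points, gave 369 and 462 calls for ESC-PGCLC and pESC-PGCLC against E9.5_PGC and 215 for pESC-PGCLC against E12.5_PGC. Leaving out LTR names gave 76 calls for ESC-PGCLC against E9.5_PGC and 5 for induction from pESC, as fewer rows were counted. A fit of all 12 libraries gave 4 calls for pESC-PGCLC against E12.5_PGC, 13 for induction from pESC and 0 between the PGCLC groups. The latter comparison gave 6 calls with the offset of 0.1 and 10 on untransformed levels. With every row of the name rule in each library, mean levels changed by 0.202 points upon induction from pESC, opposite in sign to the members. Apart from the counts with fewer rows, the cause was not tested.

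Leaving out 1 library gave 0 to 1 member calls for pESC against ESC, 0 to 68 for pESC-PGCLC against E12.5_PGC, 0 to 3 between the PGCLC groups, 10 to 68 for induction from ESC and 2 to 20 for induction from pESC. The difference of mean levels ranged from -3.88 to 2.24 points for pESC against ESC, from -1.12 to 5.0035 for induction from ESC, from -1.15 to 0.388 for induction from pESC and from -5.38 to 0.744 for the interaction. The lowest and highest values were -24.5 and 2.71 points (IAPEY4_I-int 2-981, pESC vs ESC), -23.9 and 4.22 points (IAPEY3_LTR 1-322, pESC vs ESC), and -0.35 and 57.8 points (IAPEz-int 10-4375, induction by origin interaction). Of the differences for which rows were named, 16 calls were lost without at least 1 library.

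Replicate numbers pair no samples by the labels. With the replicate block, 487 members were called between E12.5_PGC and E9.5_PGC, 71 for pESC-PGCLC against E12.5_PGC and 0 between the PGCLC groups. Deviations of same-numbered libraries over all features correlated at 0.518 between ESC and pESC and at 0.183 or less between other groups, the lowest at -0.0602.

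Depth is unknown, so counting error could not be separated from the spread between 2 libraries.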
